A study of Drosophila melanogaster with 47 samples.

Results

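The cytochrome P450 genes of the female Drosophila melanogaster gut were taken as every gene row whose symbol is Cyp followed by a digit, which gave 80 of the 11964 genes listed over 3 count tables. One of the 80 is Cyp1 (FBgn0004432), which encodes a cyclophilin, a peptidyl-prolyl isomerase and no P450, and it was set apart. The other 79 rows are P450 genes, of which 77 are annotated as protein coding and 2, Cyp6a15Psi and Cyp6t2Psi, as pseudogenes. Of them 78 have a row for esg-Gal4 whole guts, 74 for sorted progenitors and 73 for Actin-Gal4 guts, and 70 are in all 3 count tables. The Cyp symbols Cyp308a1, Cyp313a2, Cyp313a3, Cyp313a5, Cyp316a1, Cyp40 and Cyp4d21 of the annotation have no row in these tables and are not analysed here.

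P450 enzymes are haem proteins that insert an oxygen atom from molecular oxygen into a substrate. Most sit in the endoplasmic reticulum and take electrons from the reductase Cpr, whereas those of the mitochondrial clan take them from a ferredoxin and its reductase. In insects the CYP3 and CYP4 clans hold most of the enzymes linked to plant toxins and insecticides, and the gut, fat body and Malpighian tubules are their main sites, while a few members make or inactivate steroid hormones or build the cuticle.

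RNA-seq counts of 32 of the 47 samples were used, in 8 groups of 4. Mated females had been kept with an equal number of males for 48 h and unmated females apart from males since eclosion. The genotypes were esg-Gal4 for whole guts and for sorted esg+ progenitor cells, Actin-Gal4 for control whole guts, and Actin-Gal4/ EcR RNAi for whole guts with a construct against the ecdysone receptor gene EcR, with age and genotype matched between mated and unmated flies. The esg driver is active in intestinal stem cells and their immediate daughters, and Actin-Gal4 is active throughout the body, so the RNAi was not limited to the gut. Actin-Gal4 flies of both genotypes had spent 5 days at 29 °C before mating at 25 °C. Each whole gut library pooled 15 guts and each progenitor library 100 to 150, so a p-value reflects how such pools vary. The labels give no control construct for the Actin-Gal4 flies and no reporter for the sort.

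Gene counts ran from 13712654 to 24527185 per esg-Gal4 whole gut library, from 31333743 to 44215773 per progenitor library and from 19371149 to 29800901 per Actin-Gal4 library. Levels below are counts per 1000000 counts of the scaled library (CPM), with each table scaled on its own, and a gene is called higher or lower where edgeR's quasi-likelihood test gave a Benjamini-Hochberg adjusted p under 0.05 over all genes of the fit. The summed CPM of 8 progenitor markers was 2743 to 3692 in the sorted libraries and 50.8 to 112.8 in the esg-Gal4 whole guts, and the sum of 8 enterocyte markers 1129 to 2156 against 21030 to 55440. In bulk RNA, fewer cells of a type and less RNA per cell cannot be told apart. Of the 79 P450 genes, 38 overlap another gene in the annotation, 33 of them on the opposite strand. The library kit keeps strand, but the strand setting of the counting is unknown here, so reads of such neighbours may have been counted together or left out.

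The 79 genes fall into 18 families and 43 subfamilies. By clan, 39 belong to CYP3, 27 to CYP4, 9 to the mitochondrial clan and 4 to CYP2. Chromosome arm 2R (BDGP6.54) carries 35 of them, and 14 groups of neighbours lie within gaps of at most 10000 bases. The largest group holds 9 genes between positions 14871366 and 14903095 of 2R, in the order Cyp6a22, Cyp6a17, Cyp6a23, Cyp6a19, Cyp6a9, Cyp6a20, Cyp6a21, Cyp6a8 and Cyp317a1.

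A handful of genes made up most of the P450 RNA of the whole gut. Per kilobase of exon, the 4 highest in unmated esg-Gal4 whole guts were Cyp9f2 at 588 ± 74.5 CPM per kb (SD, n = 4), Cyp9b2 at 525 ± 35.0, Cyp6d5 at 438 ± 77.3 and Cyp12a4 at 263 ± 28.3. Cyp12a4 is a mitochondrial-clan P450 whose excess confers resistance to the insect growth regulator lufenuron. In that order Cyp9f2 and Cyp9b2 did not differ beyond their spread, nor did Cyp9b2 and Cyp6d5, while Cyp12a4 lay well below Cyp6d5. The same 4 genes led in all 6 whole gut groups, in changing order, with Cyp12a4 first in mated Actin-Gal4 control guts at 324 ± 79.1 CPM per kb. The 5 highest genes held 52.9% to 62.7% of the summed P450 CPM per kb in each of the 8 groups.

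By subfamily, the summed CPM in unmated esg-Gal4 whole guts was highest for Cyp9f (2 genes) at 1086 ± 134, for Cyp9b (2 genes) at 902 ± 60.0, for Cyp6d (3 genes) at 868 ± 125, for Cyp6a (14 genes) at 620 ± 61.8 and for Cyp12a (2 genes) at 517 ± 50.6. In unmated progenitors the order was different. Cyp6a had the most among subfamilies with 2 or more genes, at 397 ± 124, followed by Cyp6d at 120 ± 32.9 and Cyp9f at 110 ± 18.0. The 5 Cyp4d genes summed to 208 ± 43.7 CPM in unmated esg-Gal4 guts and 28.8 ± 5.97 in unmated progenitors. The 3 Cyp4ac genes summed to 82.1 ± 9.92 and 8.40 ± 1.53 in the same groups.

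Some members with a well-known role elsewhere in the body were hardly present. Cyp18a1, which inactivates 20-hydroxyecdysone, averaged 0.139 to 0.813 CPM over the 8 groups. Cyp6a8, whose excess accompanies DDT resistance and which caffeine induces, averaged 0.00828 to 1.04 CPM. Cyp303a1 and Cyp310a1 passed the filter on low counts in no mating comparison. Cyp4g1, the oenocyte enzyme that makes cuticular hydrocarbons, varied widely within groups. It read 120, 26.0, 0.289 and 13.7 CPM in mated esg-Gal4 whole guts, 4.25, 81.6, 69.7 and 48.0 in unmated ones, and 44.1, 10.4, 3.41 and 306 in mated Actin-Gal4 control guts. It was called in no mating or genotype comparison.

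Sorted progenitors held far less P450 RNA than whole guts, with a short list of exceptions. In a joint fit of the 16 esg-Gal4 libraries, 60 of the 70 P450 genes tested were lower and 4 higher in mated progenitors than in mated whole guts. Over all genes of that fit 39.7% were lower and 43.2% higher, 82.9% together. In unmated flies 54 were lower and 7 higher, beside 38.8% and 42.2% of all genes, 81.0% together. The median log2 difference of the P450 genes was -4.05 in mated and -3.07 in unmated flies, beside 0.10 and 0.09 over all genes tested. The median over all genes was 0.23 and 0.18 with upper quartile scaling and -0.06 and -0.02 with DESeq2 size factors. All 24 tested genes of the CYP4 clan were lower in mated progenitors. Sorting, the series of library names, the count table and the material coincide in this comparison and cannot be told apart.

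Cyp305a1, of the small CYP2 clan, was the P450 gene with the highest per-kilobase level in mated progenitors. It lies on arm 3L at 19810403 to 19813339. In the table of progenitors it read 218, 220.4, 219 and 219.6 CPM in mated flies and 191, 186, 195 and 201 in unmated ones. With both tables scaled together the 8 progenitor libraries read 153 to 185 CPM and the 8 whole gut libraries 3.10 to 13.4, far apart. The log2 difference in the joint fit was 4.64 ± 0.29 (SE; adjusted p = 4.48e-10) in mated and 4.05 ± 0.28 (adjusted p = 1.93e-09) in unmated flies. Cyp9c1, a CYP3 clan gene, led unmated progenitors at 149 ± 31.7 CPM per kb. Its progenitor level exceeded that of whole guts by a log2 difference of 1.50 ± 0.15 (adjusted p = 1.05e-07) in unmated and 0.60 ± 0.14 (adjusted p = 0.00112) in mated flies. Cyp6w1 at 2.84 ± 0.24 in mated flies and the pseudogene Cyp6a15Psi at 1.50 ± 0.42 completed the 4 higher genes. In unmated flies Cyp6g2, Cyp28d2 and Cyp6a13 were higher as well. These 5 genes from Cyp6w1 on were named after their values were seen.

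**Figure D1:**
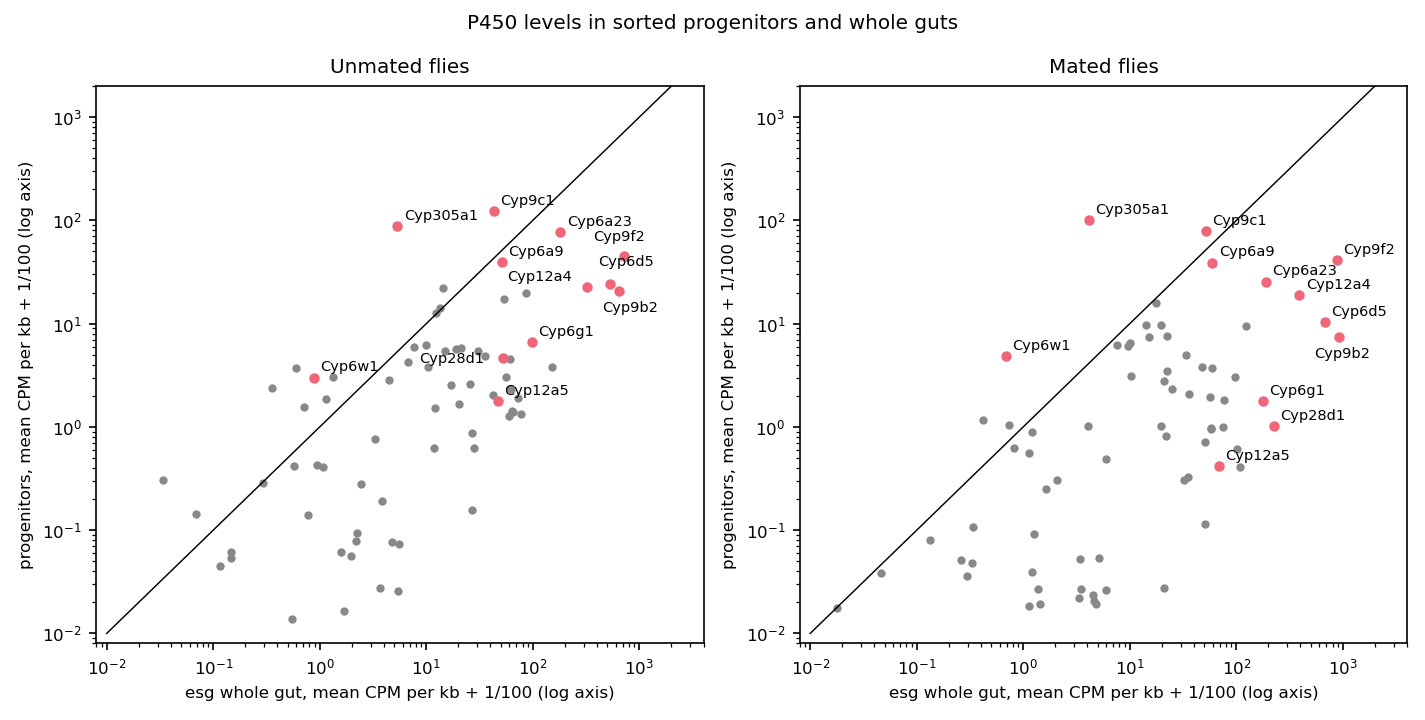
Each point is 1 P450 gene, with its mean CPM per kilobase of exon over 4 libraries in esg-Gal4 whole guts (x) and sorted progenitors (y), from a joint scaling of both tables, on log axes with a small constant added. The diagonal marks equal levels. Most genes lie below it in both panels, and Cyp305a1, Cyp9c1 and Cyp6w1 lie above it.

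Mating was examined in 4 sets of libraries, and P450 genes took part in all of them. In the main fits the calls in esg-Gal4 whole guts were mostly higher in mated flies. In progenitors, Actin-Gal4 control guts and guts labelled EcR RNAi they were mostly lower. The summed P450 CPM was 7009 to 8048 in mated and 5282 to 6566 in unmated esg-Gal4 whole guts, and 915 to 1086 against 1213 to 1797 in progenitors. In Actin-Gal4 control guts it was 3616 to 5244 in mated and 5424 to 6487 in unmated flies, and 4824 to 5595 against 6418 to 8161 in guts labelled EcR RNAi. The mated and unmated libraries of each set did not overlap in this sum. Of the 79 genes, 72 were tested in at least 1 response and 39 were called in at least 1, 22 of them in exactly 1. Over all genes, 46.0% of the 9925 tested in at least 1 response were called in at least 1 and 37.7% in exactly 1. The 33 others that were tested were not called, and 7 passed the filter in no mating response.

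**Figure D2:**
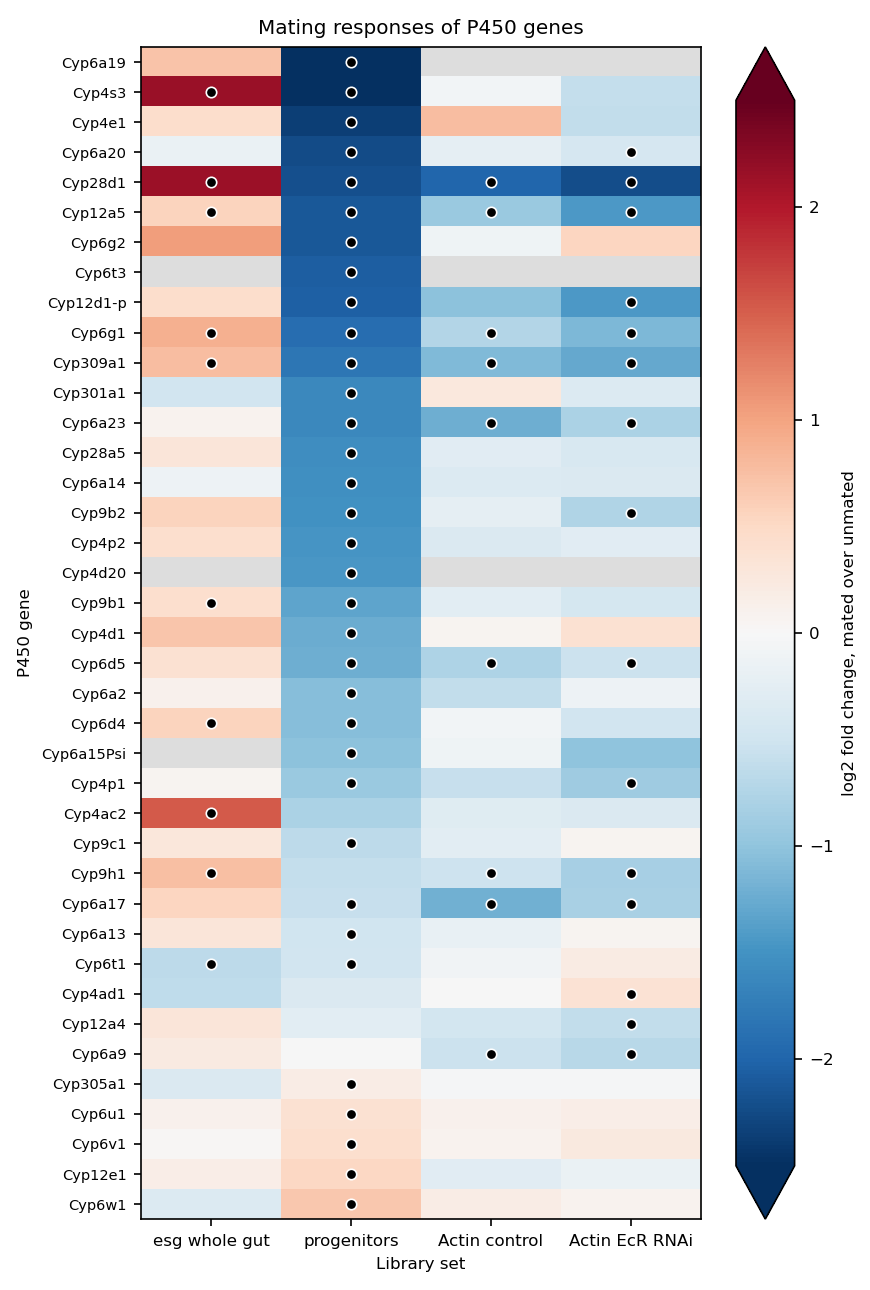
Colour gives the log2 fold change of mated over unmated flies for each of the 39 P450 genes called in at least 1 of 4 library sets (columns), with a dot where the gene was called and grey where it was not tested. Blue dominates the progenitor column and red the esg-Gal4 whole gut column. The 5 progenitor genes at the foot of the plot were higher in mated flies.

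Mated esg-Gal4 whole guts had more RNA of 9 P450 genes and less of 1, of 67 tested. Over all genes of this fit 2.23% were called higher and 2.03% lower, 4.26% together. The median log2 fold change was 0.28 over the P450 genes and 0.02 over all genes. The 9 higher genes were Cyp28d1, Cyp4s3, Cyp4ac2, Cyp6g1, Cyp309a1, Cyp9h1, Cyp12a5, Cyp6d4 and Cyp9b1, and the lower one was Cyp6t1. Cyp28d1 is a CYP3 clan gene linked to nicotine resistance and Cyp6g1 the gene whose excess gives resistance to DDT and neonicotinoids.

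Cyp28d1 had the smallest adjusted p of the 10. It read 335, 214, 304 and 364 CPM in mated and 59.7, 74.5, 70.1 and 73.1 in unmated esg-Gal4 whole guts. Every mated library lay above every unmated one. The log2 fold change was 2.13 ± 0.17 (SE; adjusted p = 0.000182) and stayed between 2.03 and 2.27 with each library left out in turn. Cyp6g1, at 12185667 to 12188431 of 2R, read 231, 299, 397 and 297 CPM in mated and 191, 174, 163 and 134 in unmated guts, again with no overlap. The log2 fold change was 0.89 ± 0.17 (adjusted p = 0.0177). Cyp6t1 went the other way, at 36.8, 28.7, 31.9 and 35.6 CPM in mated and 52.4, 54.8, 56.6 and 46.0 in unmated guts, a log2 fold change of -0.66 ± 0.11 (adjusted p = 0.00934). The groups did not overlap.

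Cyp4s3, a CYP4 clan gene chosen here after its values were seen, read 64.9, 71.0, 167 and 86.3 CPM in mated and 37.0, 23.5, 14.9 and 12.02 in unmated guts. The groups did not overlap, and the log2 fold change of 2.16 ± 0.45 (adjusted p = 0.0408) matched that of Cyp28d1 in size with a wider error.

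Most calls in esg-Gal4 whole guts lay close to the threshold. Only Cyp28d1 and Cyp6t1 were called in each of the 8 fits that left out 1 library. The count of 10 fell to 6 when mated library 2 was dropped, to 3 when mated library 4 was and to 2 when unmated library 3 or 4 was. Cyp6g1 had an adjusted p of 0.0568 with mated library 4 left out, 0.0869 with unmated library 3 left out, and 0.0712 in the fit lacking unmated library 4, where its log2 fold change was 0.90, 0.85 and 0.77. No fold change of the 10 genes moved by over 1.5-fold in any of these fits. The count was 6 with upper quartile scaling. With the replicate number as a block it was 4, 2 in each direction, so the excess of higher calls was not kept there. In the same libraries the enterocyte markers summed to 21030 to 25690 CPM in mated and 41420 to 55440 in unmated guts. Of the 8 enterocyte markers 3 were called lower and 1 higher in mated guts, with a median log2 fold change of -0.32. Of 10 visceral muscle markers tested 7 were called lower in mated guts, with sums of 1479 to 1880 against 2638 to 2824. Their part in the P450 result was not tested. The direction rests on the deposited mating labels of these 8 libraries.

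Mated progenitors had less RNA of 29 P450 genes and more of 5, of 56 tested. Over all genes of this fit 21.1% were called lower and 19.1% higher, 40.2% together. The median log2 fold change was -0.66 over the P450 genes and 0.02 over all genes. Of the 29 lower genes 24 were lower by over 2-fold, as were 9.96% of all genes tested. The 29 include both Cyp6g genes, both Cyp9b genes, and 8 Cyp6a genes (Cyp6a2, Cyp6a13, Cyp6a14, Cyp6a15Psi, Cyp6a17, Cyp6a19, Cyp6a20 and Cyp6a23).

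Cyp6a20, a gene known for its effect on male aggression, read 8.43, 7.72, 6.72 and 9.66 CPM in mated and 66.2, 21.8, 28.7 and 35.8 in unmated progenitors. All mated libraries lay below all unmated ones. The log2 fold change was -2.23 ± 0.33 (adjusted p = 0.00344). Cyp6g1 read 4.55, 3.31, 4.07 and 5.66 CPM against 15.0, 15.7, 15.0 and 20.7, with a log2 fold change of -1.91 ± 0.18 (adjusted p = 0.00184). Cyp12a5, a mitochondrial-clan gene, read 1.05, 0.781, 0.723 and 1.01 CPM in mated progenitors and 4.67, 3.11, 4.60 and 3.28 in unmated ones. Neither gene overlapped between groups. The log2 fold change of Cyp12a5 was -2.13 ± 0.24 (adjusted p = 0.00185).

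Cyp6a19 had the largest fold change of the called members in progenitors. It read 0.579, 0.901, 0.589 and 0.644 CPM in mated and 12.5, 4.32, 4.07 and 7.20 in unmated progenitors, a log2 fold change of -3.37 ± 0.40 (adjusted p = 0.00247). The groups did not overlap. The gene overlaps Cyp6a9, which lies on the other strand. Cyp9b2 read 16.1, 13.3, 12.6 and 17.1 CPM against 44.8, 28.4, 52.3 and 42.6, a log2 fold change of -1.51 ± 0.18 (adjusted p = 0.00247), again without overlap. Its neighbour Cyp9b1 was lower as well, at -1.32 ± 0.22 (adjusted p = 0.00425). Cyp9c1, the leading P450 of unmated progenitors, read 187, 177, 148 and 147 CPM in mated and 342, 238, 235 and 223 in unmated ones, and its log2 fold change was -0.65 ± 0.15 (adjusted p = 0.01). The groups did not overlap. Cyp9c1 overlaps CG13594 and an antisense RNA gene on the other strand.

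Cyp6a23, of the 2R group, read 52.0, 62.3, 50.4 and 51.0 CPM in mated and 243, 102, 132 and 181 in unmated progenitors, without overlap, a log2 fold change of -1.61 ± 0.24 (adjusted p = 0.00363). Cyp6a2, a gene whose excess accompanies insecticide resistance, read 1.63, 1.50, 1.31 and 2.07 CPM against 4.04, 3.08, 3.19 and 3.28, a log2 fold change of -1.06 ± 0.21 (adjusted p = 0.00666). Both kept the call with each library left out in turn, as did Cyp6a20, Cyp6g1, Cyp12a5, Cyp6a19, Cyp9b2 and Cyp9c1. Cyp6a17, in contrast, read 22.4, 24.7, 15.7 and 16.7 CPM against 41.4, 23.3, 25.2 and 29.5, where the groups overlap. Its fold change of -0.58 ± 0.21 on the log2 scale passed narrowly (adjusted p = 0.0483), and the call was lost in 5 of the 8 fits that left out 1 library, with adjusted p-values of up to 0.115.

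The 5 higher genes in mated progenitors were Cyp12e1, Cyp305a1, Cyp6u1, Cyp6v1 and Cyp6w1, with log2 fold changes of 0.18 to 0.68. Cyp305a1 was higher by 0.18 ± 0.05 (adjusted p = 0.0227), and its 4 mated libraries lay above its 4 unmated ones. It lost the call without mated library 2 (adjusted p = 0.0536), mated library 3 (0.0502) or unmated library 2 (0.0604).

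In the same progenitor libraries 6 heat and stress genes summed to 5084 to 8515 CPM in mated and 19220 to 74680 in unmated flies, and all 6 were called lower in mated ones. The highest sums were those of unmated libraries 1 and 4. Without both, 20 P450 genes were called, all lower in mated progenitors, and 15 of the 34 calls were lost, among them the 5 higher ones. The share of all genes called in this smaller fit is not given here, so the drop cannot be read as particular to P450 genes. Cyp6g1 then stood at -1.81 ± 0.19 (adjusted p = 0.00336), Cyp6a20 at -1.64 ± 0.16 (adjusted p = 0.00259) and Cyp28d1 at -1.80 ± 0.28 (adjusted p = 0.00958). The enterocyte markers summed to 1129 to 1614 CPM in mated and 1188 to 2156 in unmated progenitors, which overlap, and of the 8 markers 4 were called lower and 1 higher in mated progenitors, with a median log2 fold change of -0.51. Of 10 enteroendocrine markers 5 were called lower and none higher, with a median of -0.87 and overlapping sums of 143.4 to 457.3 against 315.5 to 547.2 CPM. The part of heat and stress genes, of enterocyte RNA or of enteroendocrine RNA in the result was not tested.

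Mated Actin-Gal4 control guts had less RNA of 9 P450 genes and more of none, of 67 tested. Over all genes of this fit 3.92% were called lower and 2.95% higher, 6.87% together. The median log2 fold change was -0.17 over the P450 genes and 0.01 over all genes. The 9 were Cyp28d1, Cyp6a17, Cyp6a23, Cyp309a1, Cyp12a5, Cyp6d5, Cyp6g1, Cyp6a9 and Cyp9h1.

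Cyp28d1 read 68.0, 69.7, 61.5 and 66.4 CPM in mated and 274, 256, 299.9 and 225 in unmated Actin-Gal4 control guts. The groups lay far apart, in the opposite order to the esg-Gal4 whole guts. This gave a log2 fold change of -1.99 ± 0.22 (adjusted p = 0.000528). Cyp6a17, a gene of temperature preference behaviour in the fly brain, read 14.03, 13.9, 14.7 and 13.6 CPM against 41.7, 33.6, 23.9 and 29.3, a log2 fold change of -1.19 ± 0.13 (adjusted p = 0.000528). Its neighbour Cyp6a23 read 51.5, 60.2, 70.2 and 69.9 CPM against 163, 136, 133 and 153, a log2 fold change of -1.22 ± 0.15 (adjusted p = 0.00122). Neither overlapped between groups. Cyp6a17 and Cyp6a23 are closely related in sequence, and how reads were shared between them is not known here.

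Cyp6d5, one of the 4 most abundant P450 genes, read 352, 421, 562 and 621 CPM in mated and 740, 748, 972 and 866 in unmated Actin-Gal4 control guts, without overlap, a log2 fold change of -0.77 ± 0.16 (adjusted p = 0.0133). Cyp12a5 stood at -0.94 ± 0.17 (adjusted p = 0.00720) and Cyp6g1 at -0.74 ± 0.16 (adjusted p = 0.0133). Cyp28d1, Cyp6a17, Cyp6a23, Cyp6d5, Cyp12a5 and Cyp6g1 kept the call with each library left out in turn. Cyp309a1, Cyp6a9 and Cyp9h1 each lost it in at least 4 of the 8 fits, with adjusted p-values of up to 0.101, 0.0651 and 0.0974.

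Guts labelled EcR RNAi responded to mating with 14 lower P450 genes and 1 higher, of 67 tested, where 5.41% of all genes were lower and 5.37% higher, 10.8% together. The median log2 fold change was -0.35 over the P450 genes and 0.00 over all genes. All 9 genes called in Actin-Gal4 control guts were called here too, in the same direction, which is 60.0% of the 15. Over all genes 45.6% of those called in Actin-Gal4 control guts were called in guts labelled EcR RNAi, all in the same direction. The others were Cyp12d1-p, Cyp4p1, Cyp9b2, Cyp12a4 and Cyp6a20, all lower, and Cyp4ad1, higher by 0.35.

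Cyp28d1 read 37.9, 48.4, 87.6 and 86.8 CPM in mated and 349.6, 294, 274 and 298 in unmated guts labelled EcR RNAi. The mated libraries again lay well below, by a log2 fold change of -2.22 ± 0.22 (adjusted p = 0.000216). Cyp12a5 read 49.0, 54.7, 44.0 and 43.8 CPM against 116, 166, 96.4 and 144, without overlap, a log2 fold change of -1.45 ± 0.17 (adjusted p = 0.000810). Cyp6g1 stood at -1.12 ± 0.16 (adjusted p = 0.00123) and Cyp9h1 at -0.83 ± 0.14 (adjusted p = 0.00343). Cyp12d1-p, one of a pair of near-identical copies described below, read 4.63, 6.57, 10.1 and 7.57 CPM in mated and 22.1, 23.9, 13.8 and 18.1 in unmated guts labelled EcR RNAi. The groups did not overlap, and the log2 fold change was -1.44 ± 0.32 (adjusted p = 0.0139). In Actin-Gal4 control guts the same gene stood at -1.02 ± 0.32 (adjusted p = 0.068) and was not called. Of the 15 calls 9 held with each library left out in turn, and without mated library 3 the count was 9.

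**Figure D3:**
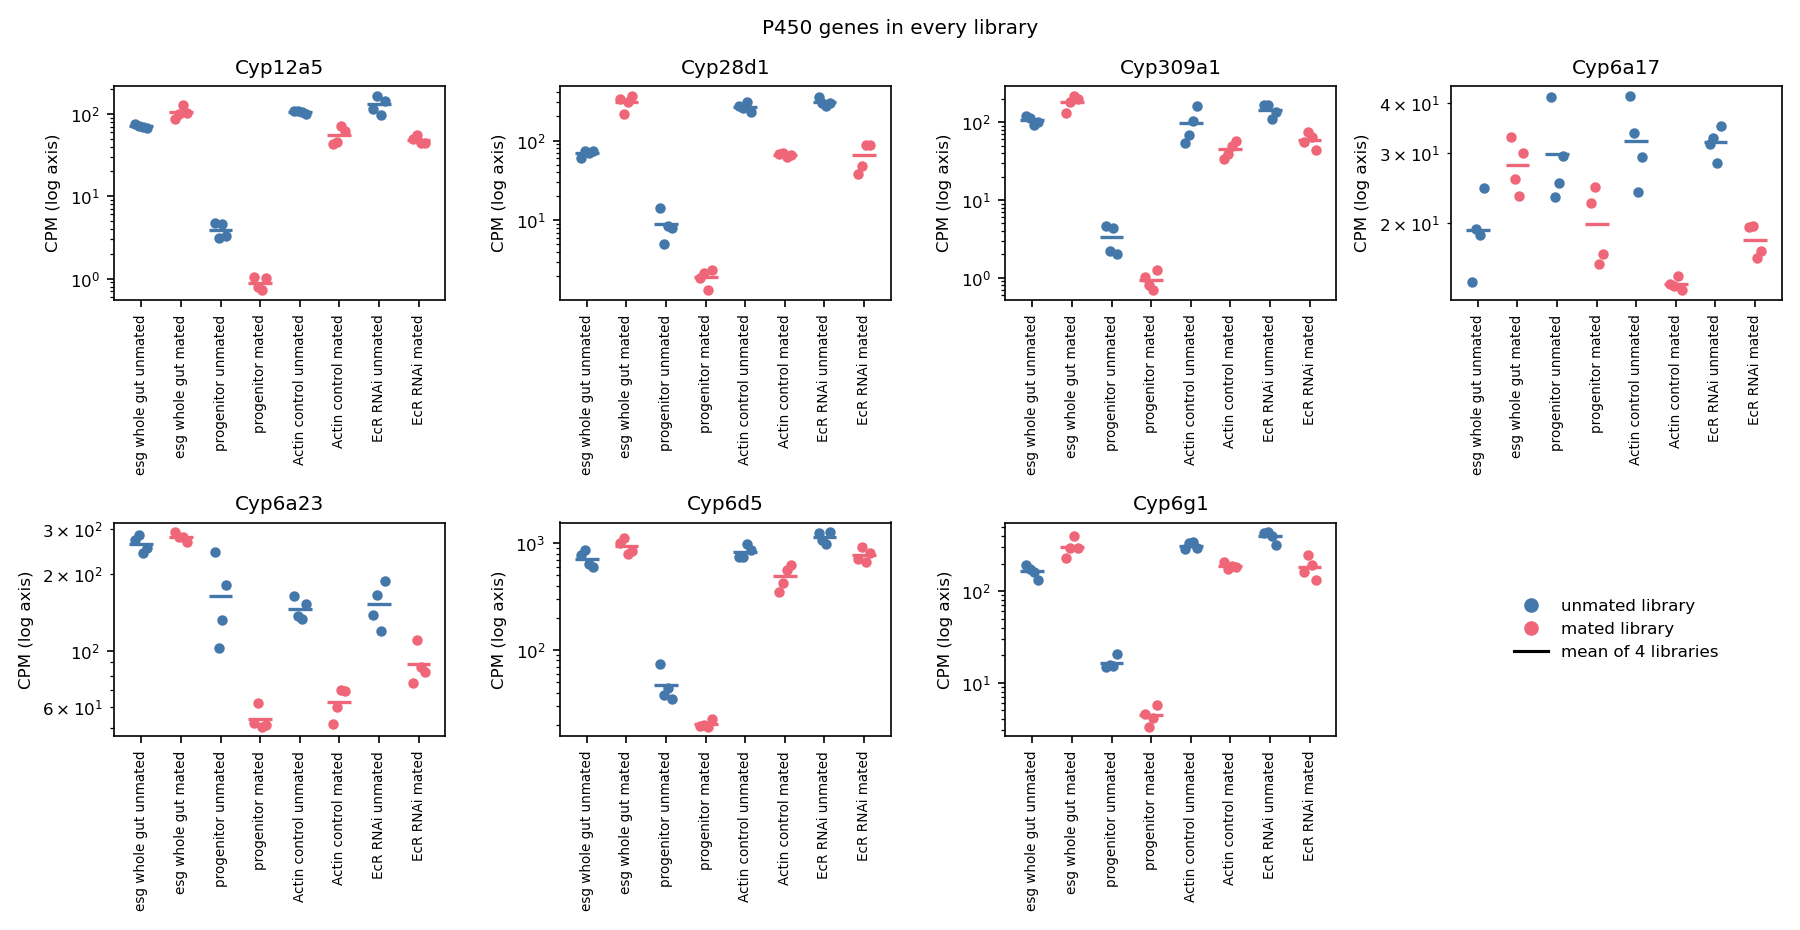
Every library's CPM, on a log axis, for the 7 P450 genes lower with mating in progenitors, Actin-Gal4 control guts and guts labelled EcR RNAi, by group, with the mean of 4 libraries as a bar. The mated mean is the lower one in progenitors and in both kinds of Actin-Gal4 guts and the higher one in esg-Gal4 whole guts, and the mated and unmated points overlap for Cyp6a17, Cyp6a23 and Cyp6d5 in esg-Gal4 whole guts, Cyp6a17 in progenitors and Cyp309a1 in Actin-Gal4 control guts.

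Of the 39 genes with a call, 4 were called in all 4 library sets, namely Cyp12a5, Cyp28d1, Cyp309a1 and Cyp6g1. Each was higher in mated esg-Gal4 whole guts and lower in the other 3 sets. Over all genes 0.383% were called in all 4 sets, and 0.302% with these directions. The whole gut calls of Cyp12a5, Cyp309a1 and Cyp6g1 were lost in 6, 4 and 3 of the 8 fits that left out 1 library, and that of Cyp309a1 in Actin-Gal4 control guts in 5 of 8. Cyp6a17, Cyp6a23 and Cyp6d5 were lower in the same 3 sets and not called in esg-Gal4 whole guts, where their log2 fold changes were 0.54 ± 0.17, 0.09 ± 0.10 and 0.38 ± 0.16. In total 7 P450 genes were lower in these 3 sets, as were 0.615% of all genes. Cyp309a1 is outside the rule for named genes and was chosen after its values were seen. It read 133, 179, 218 and 196 CPM in mated and 119, 112, 92.5 and 101 in unmated esg-Gal4 whole guts, and 55.3, 73.8, 64.1 and 44.2 against 166, 168, 111 and 134 in guts labelled EcR RNAi. Neither pair of groups overlapped.

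The difference between responses was itself tested. Set against the esg-Gal4 whole guts, the progenitor response was lower for 33 P450 genes and higher for 1, Cyp6w1 (lost in 10 of the 16 fits that left out 1 library), of 70 tested, where 12.2% of all genes were lower and 9.06% higher, 21.3% together. The median difference was -1.18 on the log2 scale for the P450 genes and -0.01 for all genes. Cyp28d1 differed by -4.30 ± 0.38 (adjusted p = 1.14e-05), Cyp12a5 by -2.65 ± 0.23 (adjusted p = 1.14e-05) and Cyp6g1 by -2.76 ± 0.26 (adjusted p = 1.95e-05). Without unmated progenitor libraries 1 and 4 the count was 19, all lower, and the share of all genes called in that fit is not given here.

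The response of Actin-Gal4 control guts was lower than that of esg-Gal4 whole guts for 16 P450 genes and higher for none, of 71 tested, where 4.96% of all genes were lower and 3.16% higher, 8.12% together. The median difference was -0.47 on the log2 scale for the P450 genes and 0.00 for all genes. Cyp28d1 differed by -4.13 ± 0.20 (adjusted p = 9.59e-09), Cyp6a23 by -1.31 ± 0.14 (adjusted p = 6.92e-05), Cyp6g1 by -1.63 ± 0.20 (adjusted p = 0.000177) and Cyp12a5 by -1.50 ± 0.20 (adjusted p = 0.000307). Without mated Actin-Gal4 control library 2 the count was 10. Both difference tests used the same whole gut libraries. Driver, the days at 29 °C, the series of library names and the count table separate the whole gut sets as well and cannot be told apart.

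Neighbours on the chromosome were not always called alike. In the group of 9 on 2R, Cyp6a17 (at -0.58), Cyp6a23, Cyp6a19 and Cyp6a20 were called lower in mated progenitors. Cyp6a9, Cyp6a21 and Cyp317a1, with log2 fold changes of -0.02, -0.45 and -0.30, were not called. In Actin-Gal4 control guts Cyp6a17, Cyp6a23 and Cyp6a9 were lower, while Cyp6a20 at -0.22 and Cyp6a21 at -0.17 were not called. Cyp6a22 and Cyp6a8 were not tested in progenitors. Cyp28d1 lies next to Cyp28d2 on arm 2L, at 5210460 to 5212445 and 5207267 to 5209345. Cyp28d2 was called in none of the 4 mating responses, with log2 fold changes of 0.09 in esg-Gal4 whole guts and -0.59, -0.29 and -1.01 in progenitors, Actin-Gal4 control guts and guts labelled EcR RNAi. The neighbours Cyp12a5 and Cyp12a4 on arm 3R gave -2.13 and -0.26 in progenitors. These differences between neighbours were not tested.

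**Figure D4:**
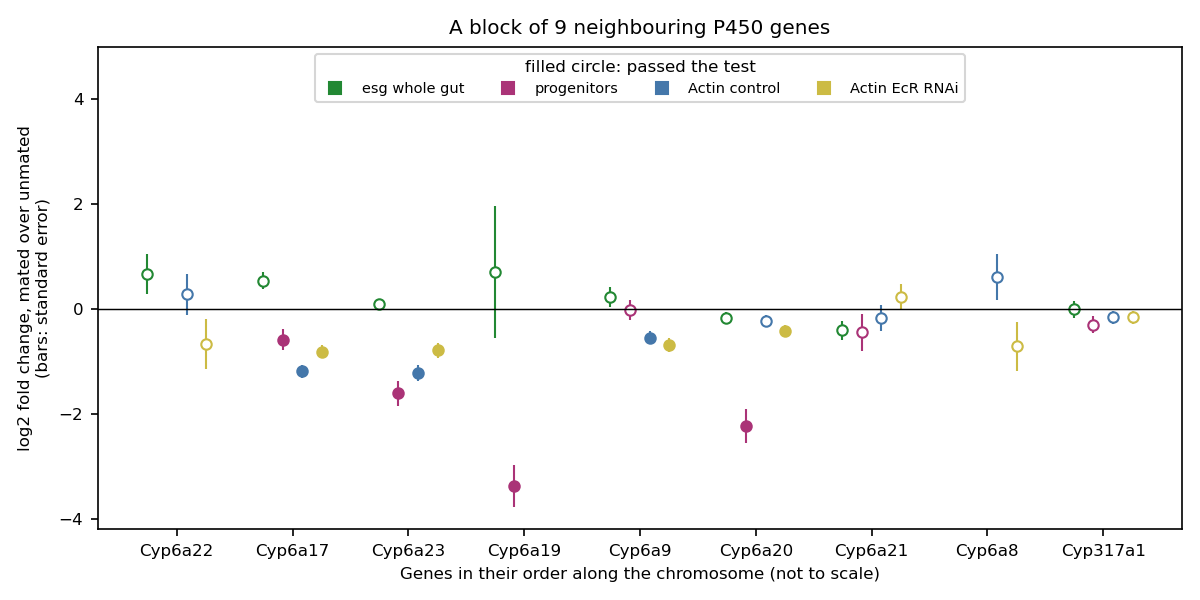
Log2 fold change of mated over unmated flies, with its standard error, for 9 neighbouring P450 genes in their order along 2R, in 4 library sets, where filled circles were called. The progenitor values of Cyp6a19 and Cyp6a20 reach -3.37 and -2.23, and those of Cyp6a9 and Cyp317a1 are -0.02 and -0.30. Genes without a point in a set were not tested there.

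The EcR RNAi genotype was checked first on its target. EcR read 7.24, 7.90, 9.45 and 8.54 CPM in mated Actin-Gal4 control guts and 8.22, 9.62, 11.02 and 9.39 in mated guts labelled EcR RNAi. In unmated flies it read 7.17, 9.47, 7.42 and 8.23 against 14.7, 12.5, 12.5 and 11.8, higher in the libraries labelled EcR RNAi by 0.67 ± 0.11 on the log2 scale (adjusted p = 0.00125). In mated flies it differed by 0.21 ± 0.11 (adjusted p = 0.34). EcR mRNA was lower in neither state, and the genotype below is the one on the labels.

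Unmated guts labelled EcR RNAi had more RNA of 10 P450 genes and less of 10, of 67 tested, where 7.95% of all genes were higher and 7.24% lower, 15.2% together. In mated flies 8 were higher and 10 lower, beside 3.53% and 4.99% of all genes, 8.52% together. The mated and unmated comparisons use different libraries, and 11 genes were called in both, all in the same direction, which is 55.0% of the 20 and 61.1% of the 18. Over all genes 465 were called in both, all in the same direction, which is 33.9% and 60.4% of the genes called in unmated and mated flies. The 11 were Cyp12d1-d, Cyp4ae1, Cyp4d1, Cyp6a20, Cyp9f2 and Cyp9f3, higher in guts labelled EcR RNAi, and Cyp4ac1, Cyp4ac2, Cyp4ac3, Cyp6w1 and Cyp9h1, lower. The call of Cyp6a20 in mated flies was lost in 6 of the 8 fits that left out 1 library, with adjusted p-values of up to 0.101. In the same unmated libraries 5 of 10 visceral muscle markers were called lower in guts labelled EcR RNAi, with sums of 1935 to 2616 CPM against 2711 to 3669 in control guts, which do not overlap. Enterocyte markers summed to 29710 to 36880 CPM against 29670 to 47620, with 3 of 8 called lower and 1 higher, and enteroendocrine markers to 379.8 to 422.6 against 457.9 to 526.1, without overlap and with 3 of 10 called lower. In mated flies 1 visceral muscle marker was called lower, 1 enterocyte marker lower and 1 higher, and 2 enteroendocrine markers lower and 1 higher. Their part in the P450 result was not tested.

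Cyp12d1-d had the largest fold change of the 11. It read 0.409, 0.155, 0.560 and 0.529 CPM in unmated Actin-Gal4 control guts and 4.15, 3.50, 3.36 and 4.86 in unmated guts labelled EcR RNAi, a log2 fold change of 3.25 ± 0.53 (adjusted p = 0.00105). In mated flies it read 0.128, 0.115, 0.123 and 0.210 against 2.27, 0.20, 2.83 and 2.00, a log2 fold change of 3.65 ± 0.62 (adjusted p = 0.00247). Unmated groups did not overlap, whereas mated library 2 labelled EcR RNAi lay within the control range. Cyp12d1-d and its neighbour Cyp12d1-p are nearly identical copies, at 11123658 to 11125647 and 11117225 to 11121884 of 2R, whose number and sequence vary between fly strains, so the split of reads between the rows is uncertain. Cyp12d1 is induced by several xenobiotics. Cyp12d1-p was not called by genotype, at -0.04 ± 0.31 in unmated and -0.47 ± 0.33 in mated flies. The summed CPM of both was 20.5 ± 8.82 in unmated control guts and 23.4 ± 4.58 in unmated guts labelled EcR RNAi.

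Cyp9f3 and Cyp9f2, neighbours on arm 3R, were higher in guts labelled EcR RNAi in both mating states. Cyp9f3 read 26.9, 26.8, 36.6 and 36.3 CPM in unmated control guts and 58.6, 62.1, 54.6 and 69.0 in unmated guts labelled EcR RNAi, and 21.0, 25.3, 29.9 and 32.0 against 48.9, 44.9, 58.2 and 50.5 in mated ones. Genotypes did not overlap in either state, and the log2 fold changes were 0.95 ± 0.14 (adjusted p = 0.000448) and 0.91 ± 0.14 (adjusted p = 0.00124). Cyp9f3 overlaps the gene Sol1 on the other strand. Cyp9f2 stood at 0.52 ± 0.15 and 0.54 ± 0.15 and lost the call in 5 of the 8 fits that left out 1 library in each state. Cyp6d4 at 0.83 ± 0.15 (adjusted p = 0.00187) and Cyp9b2 at 0.93 ± 0.20 (adjusted p = 0.00652) were called higher in unmated flies, and in mated flies stood at 0.42 ± 0.15 and 0.43 ± 0.20 without a call.

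The 3 neighbouring Cyp4ac genes on arm 2L, which overlap the gene tkv on the other strand, were all lower in guts labelled EcR RNAi. Cyp4ac1 read 113, 103, 111 and 100.1 CPM in unmated control guts and 71.0, 68.1, 84.5 and 82.9 in unmated guts labelled EcR RNAi, without overlap. The log2 fold change was -0.48 ± 0.09 (adjusted p = 0.00202), and -0.49 ± 0.09 (adjusted p = 0.00297) in mated flies. Cyp4ac3 stood at -0.75 ± 0.17 and -0.82 ± 0.18, and Cyp4ac2 at -0.52 ± 0.16 and -0.56 ± 0.17. Cyp4ac2 lost the call in 7 of the 8 unmated and 6 of the 8 mated fits that left out 1 library. Cyp9h1 read 28.1, 32.1, 34.1 and 38.8 CPM in unmated control guts against 25.5, 21.0, 18.8 and 26.7, and 21.4, 22.3, 26.1 and 23.5 against 10.5, 16.2, 11.2 and 13.7 in mated ones. The genotypes did not overlap, and its log2 fold changes were -0.53 ± 0.14 (adjusted p = 0.0197) and -0.85 ± 0.14 (adjusted p = 0.00215), the former lost in 3 of the 8 fits.

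Cyp4ae1, a CYP4 clan gene on the X chromosome, read 91.4, 91.6, 108 and 100.4 CPM in unmated control guts and 142, 131, 139 and 167 in unmated guts labelled EcR RNAi. In mated flies it read 85.9, 87.3, 101 and 96.3 against 109, 115.5, 139.7 and 133. The genotypes did not overlap in either state, and the log2 fold changes of 0.57 ± 0.10 (adjusted p = 0.00135) and 0.42 ± 0.10 (adjusted p = 0.013) held with each library left out in turn. Cyp4d1, close to it on the X chromosome and chosen here after its values were seen, stood at 0.71 ± 0.22 (adjusted p = 0.0394) and 1.03 ± 0.22 (adjusted p = 0.00932). In unmated flies that call was lost in 7 of the 8 fits that left out 1 library, with adjusted p-values of up to 0.0953. Cyp6w1, likewise outside the rule for named genes, went the other way. It read 12.03, 8.07, 12.9 and 8.23 CPM in unmated control guts and 5.57, 4.83, 4.57 and 5.12 in unmated guts labelled EcR RNAi, without overlap, a log2 fold change of -1.04 ± 0.28 (adjusted p = 0.0214), and lost the call in 4 of the 8 fits.

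Called in unmated flies alone, besides Cyp6d4 and Cyp9b2, were Cyp6a9 and Cyp4e2, higher by 0.55 and 0.54, and Cyp313a4, Cyp4g15, Cyp318a1, Cyp12b2 and Cyp4ad1, lower, with log2 fold changes from -0.74 to -0.39. Called in mated flies alone were Cyp6d5 at 0.67 and Cyp9c1 at 0.84, both higher. A call in 1 state alone does not show that the states differ, and the interaction tested below called none of these genes.

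**Figure D5:**
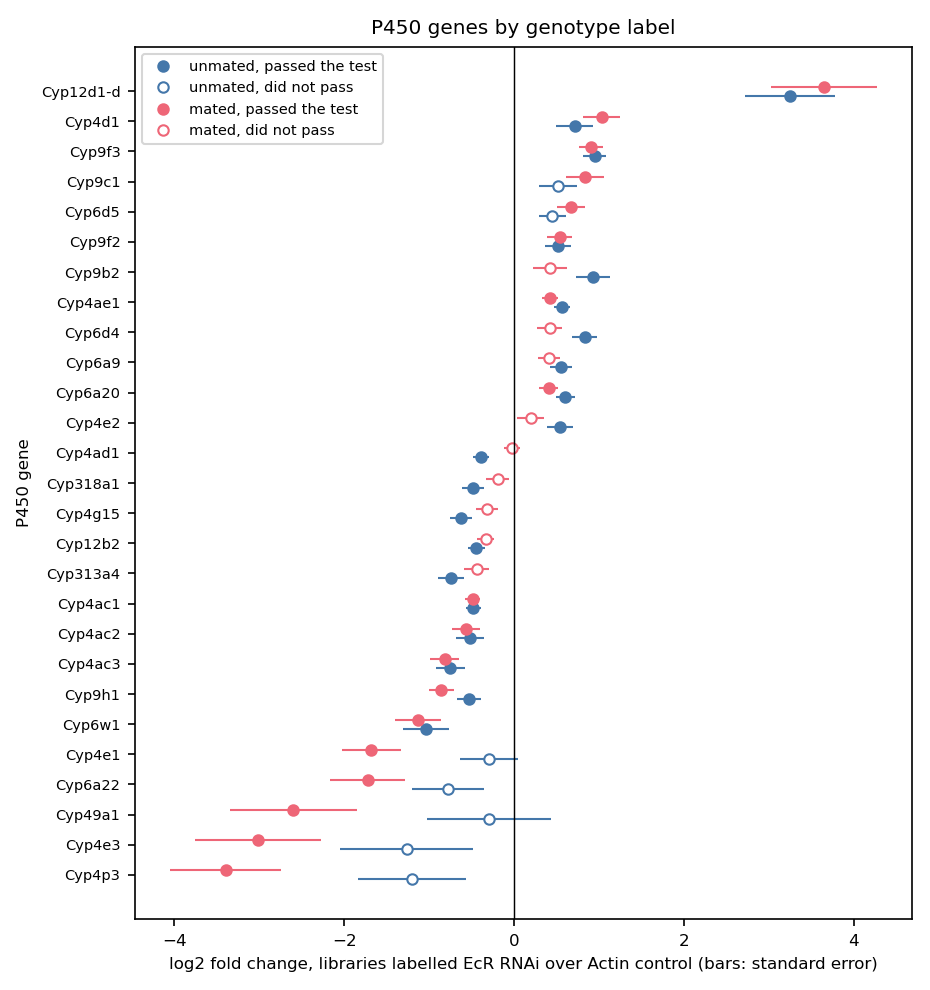
Log2 fold change of guts labelled EcR RNAi over Actin-Gal4 control guts, with its standard error, for the 27 P450 genes called in unmated (blue) or mated (red) flies, where filled circles were called. The 11 genes with both circles filled lie on the same side of 0. The 5 genes at the foot were called in mated flies and not in unmated ones.

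Among mated flies a further 5 genes were lower in guts labelled EcR RNAi, Cyp4p3, Cyp4e3, Cyp49a1, Cyp6a22 and Cyp4e1, and were not called in unmated ones. Cyp49a1 lost the call in 6 and Cyp6a22 in 5 of the 8 fits that left out 1 library. Cyp4e3, known in the Malpighian tubules for pyrethroid tolerance, read 7.40, 3.64, 2.01 and 4.19 CPM in mated control guts and 0.579, 0.321, 1.27 and 0 in mated guts labelled EcR RNAi. The groups did not overlap, and the log2 fold change was -3.01 ± 0.74 (adjusted p = 0.0216). It lost the call without mated control library 1 (adjusted p = 0.0603) or mated library 1 (0.0575) or 2 (0.0649) labelled EcR RNAi, and stood at -3.81 without library 3. In unmated flies it stood at -1.27 ± 0.78. Cyp4p3, outside the rule for named genes and chosen after its values were seen, read 11.9, 4.18, 2.59 and 1.10 CPM against 0.620, 0.321, 0.732 and 0.223. Its log2 fold change was -3.39 ± 0.65 (adjusted p = 0.00560), and stood at -2.47 without mated control library 1. Of 7 Malpighian tubule markers tested, 6 were called lower in the same mated comparison and 1 in unmated flies, and the 8 markers summed to 46.96 to 151.8 CPM in mated control guts and 11.93 to 29.87 in mated guts labelled EcR RNAi, and to 36.06 to 56.97 against 20.33 to 25.5 in unmated ones. Their part in the result was not tested.

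The count of 20 genes called by genotype in unmated flies fell to 13 without library 2 labelled EcR RNAi, and the count of 18 in mated flies to 11 without library 2 labelled EcR RNAi.

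Whether the mating response differed by genotype label was tested by the interaction. With edgeR no gene of 9036 was called, so 0.0% of all genes and 0 of 67 P450 genes, and DESeq2 called 0 P450 genes as well. At an unadjusted p under 0.05 there were 727 genes, among them 1 P450 gene with a higher and 4 with a lower response in guts labelled EcR RNAi. The difference between the responses of Cyp28d1 was -0.23 ± 0.30 on the log2 scale, that of Cyp6g1 -0.38 ± 0.22 and that of Cyp12a5 -0.51 ± 0.24. That of Cyp6a17 was 0.38 ± 0.18 and that of Cyp6a23 0.43 ± 0.21. A p that misses the threshold does not show the responses to be alike.

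The reductase gene Cpr read 112, 122, 137 and 136 CPM in mated and 188, 200.1, 203 and 264 in unmated progenitors, without overlap, and was lower by a log2 fold change of -0.75 ± 0.12 (adjusted p = 0.00344). Of the 5 electron partners (Cpr, Cyt-b5, dare, Fdx1 and Fdx2), 2 were called in mated progenitors, Cpr lower and dare higher by 0.35 ± 0.08 (adjusted p = 0.0127), where 40.2% of all genes were called. None was called in esg-Gal4 whole guts or Actin-Gal4 control guts, and Fdx2 was lower with mating in guts labelled EcR RNAi, at -0.42 ± 0.08 (adjusted p = 0.00682). By genotype label in unmated flies 3 of the 5 were called, where 15.2% of all genes were. Cpr was higher by 0.51 ± 0.12 (adjusted p = 0.0131) and Cyt-b5 by 0.30 ± 0.09 (adjusted p = 0.0431), and Fdx1 was lower, at -0.43 ± 0.11 (adjusted p = 0.0144).

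Of 6 regulators of detoxification genes (cnc, Keap1, maf-S, Hr96, ss and tgo), 5 were tested and ss is not analysed here. Hr96, a nuclear receptor of xenobiotic and lipid responses, read 99.5, 129, 100.1 and 118 CPM in mated and 70.9, 74.0, 65.7 and 64.9 in unmated esg-Gal4 whole guts, without overlap. The log2 fold change was 0.70 ± 0.11 (adjusted p = 0.00727) there, and -0.46 ± 0.10 (adjusted p = 0.0125) in guts labelled EcR RNAi. In mated progenitors Keap1, the inhibitor of the cnc protein, was lower by -1.11 ± 0.15 (adjusted p = 0.00266) and cnc by -0.42 ± 0.08 (adjusted p = 0.00738), while tgo was higher by 0.33 ± 0.09 (adjusted p = 0.0192). These 3 of 5 stand beside 40.2% of all genes called in that comparison. In Actin-Gal4 control guts maf-S was lower with mating, at -0.48 ± 0.11 (adjusted p = 0.0172), and Hr96 was higher in unmated guts labelled EcR RNAi, by 0.50 ± 0.10 (adjusted p = 0.00532).

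Of 6 P450 genes of ecdysteroid synthesis with other symbols (phm, dib, sad, shd, spo and spok), only shd was tested. It encodes the enzyme that turns ecdysone into 20-hydroxyecdysone. It read 0.670, 1.23, 2.22 and 2.41 CPM in mated Actin-Gal4 control guts and 8.43, 4.73, 11.2 and 8.81 in mated guts labelled EcR RNAi, without overlap, a log2 fold change of 2.37 ± 0.38 (adjusted p = 0.00182). In unmated flies it read 2.34, 2.25, 2.52 and 1.16 against 4.37, 2.56, 5.16 and 4.97, and was not called.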

How the data were processed

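The deposited counts are whole-number reads per gene; per the submitters' processing notes STAR, HTSeq and DESeq2 were used with builds BDGP6 and dm6, and the sources used here do not give their roles, versions or the strand setting. Per the labels, libraries were poly(A) selected with a directional kit. The 15 samples with a Myo1A driver and 16 deposited columns that could not be tied to a sample of these groups were not used. The members and lists were chosen with earlier results of these data known.

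Only gene rows entered library sizes. Counts were tested with edgeR 4.0.16 (limma 3.58.1, R 4.3.3): low genes were removed by filterByExpr (minimum count 10, minimum total 15), then TMM scaling, robust quasi-likelihood fits and Benjamini-Hochberg adjustment over all genes of the fit. Each of the mating comparisons in esg-Gal4 whole guts and progenitors was fitted on its 8 libraries, the 16 Actin-Gal4 libraries in 1 fit, and differences between tables on joined tables. SE is the log2 fold change divided by the root of the F statistic. The code was tested on simulated data. Positions and exon lengths are from BDGP6.54, where 79 of the 80 rows matched by identifier and 1 by symbol.

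Alternatives were DESeq2 1.42.0, edgeR with DESeq2 size factors or with upper quartile scaling, edgeR without the filter, the replicate number as a block, each library left out, and unmated progenitor libraries 1 and 4 left out together. Named genes were those of well-known role with at least 1 CPM in some group, the 4 called genes of smallest adjusted p in each mating and genotype comparison, and the 5 highest per kilobase in each material. Same-numbered mated and unmated Actin-Gal4 control libraries deviated together over 9036 genes (correlations of 0.136 to 0.301, against a median of -0.204 for other numbers). Of the 4 mated libraries 1 correlated best with the unmated library of its own number, so whether the numbers mark pairs is not known. The main fits did not pair libraries, so the p-values given are unpaired. Replicate numbers entered only the block alternative, which tied them across all Actin-Gal4 groups.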

Additional observations from a re-analysis of the deposited data

Results flagged for a closer look

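Single libraries stood apart from the other 3 of their group in 11 of 189 groups examined, each group being 1 gene in 4 libraries. Chance alone sets apart about 1 in 20 groups, so the number is near that of chance. They were Cyp4ae1 at 80.8 CPM in unmated esg-Gal4 whole gut library 4, Cyp4e3 at 5.65 and Cyp6a19 at 6.66 in unmated whole gut library 2, Cyp6a2 at 16.6 in mated whole gut library 3, Cyp6a23 at 62.3 in mated progenitor library 2, Cyp6d5 at 22.7 in mated progenitor library 4, Cyp6g1 at 20.7 in unmated progenitor library 4 and Cyp9c1 at 342 in unmated progenitor library 1. In Actin-Gal4 flies they were Cyp4g1 at 306 in mated control library 4 and 51.0 in unmated library 2 labelled EcR RNAi, and Cyp9c1 at 57.3 in mated library 2 labelled EcR RNAi.

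The mating response of 15 of the 27 named genes differed between progenitors and esg-Gal4 whole guts in the test of the difference, where 21.3% of all genes differed. Some of the 27 were named for a small adjusted p in these same mating comparisons, so the 2 shares cannot be compared. On the log2 scale the progenitor response was lower by values of -4.30 for Cyp28d1, -4.05 for Cyp6a19, -2.76 for Cyp6g1, -2.65 for Cyp12a5, -2.44 for Cyp12d1-p, -2.03 for Cyp6a20, -2.02 for Cyp9b2, -1.67 for Cyp6a23, -1.57 for Cyp6d4 and for Cyp6d5, -1.31 for Cyp9h1, -1.14 for Cyp6a2, -1.09 for Cyp6a17, -0.90 for Cyp9c1 and -0.67 for Cyp4ae1. The call of Cyp6a19 was lost in 11 of 16 fits that left out 1 library and that of Cyp4ae1 in 10.

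The response of Actin-Gal4 control guts differed from that of esg-Gal4 whole guts for 11 of the 27 named genes, where 8.12% of all genes differed. The same limit on comparing the shares holds here. The differences were -4.13 for Cyp28d1, -2.14 for Cyp12d1-d, -1.74 for Cyp6a17, -1.63 for Cyp6g1, -1.50 for Cyp12a5, -1.47 for Cyp12d1-p, -1.31 for Cyp6a23, -1.26 for Cyp9h1, -1.15 for Cyp6d5, -0.76 for Cyp9f2 and -0.62 for Cyp6d4. The call of Cyp9f2 was lost in 10 of 16 fits that left out 1 library and that of Cyp12d1-p in 5. Cyp12d1-d and Cyp6d4 each lost it in 1. The whole gut libraries are the same in both sets of differences.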

How the results depend on the processing

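The counts of called P450 genes depended on single libraries. With 1 library left out in turn they ranged from 2 to 10 (10 with all) for mating in esg-Gal4 whole guts, 26 to 38 (34) in progenitors, 6 to 11 (9) in Actin-Gal4 control guts, 9 to 16 (15) in guts labelled EcR RNAi, 13 to 19 (20) and 11 to 19 (18) for genotype in unmated and mated flies, 29 to 35 (34) and 10 to 22 (16) for the response differences of progenitors and Actin-Gal4 control guts against esg-Gal4 whole guts, 63 to 66 (64) and 60 to 64 (61) for mated and unmated progenitors against whole guts, and 0 to 0 for the interaction. For mating in esg-Gal4 whole guts the count was 6 with upper quartile scaling and 15 with DESeq2. Without unmated progenitor libraries 1 and 4 the counts were 20 for mating in progenitors and 19 for the response difference. The cause was not tested. With the replicate block the whole gut count was 4, 2 in each direction. Same-numbered whole gut libraries correlated at -0.11 to 0.31, progenitor libraries at -0.07 to 0.35 and libraries labelled EcR RNAi at 0.04 to 0.15. Whether the numbers mark pairs in these sets is not known. In Actin-Gal4 control guts the block changed no call of a named gene. Of 1383 values of named genes under the alternatives 1232 kept the call, 151 lost it and 0 changed sign. At these depths 7 P450 genes passed the filter on low counts in none of the mating responses and could not be tested.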

Other observations

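Cyp301a1, which acts in forming the adult cuticle, averaged 0.630 to 4.33 CPM over the 8 groups, highest in unmated progenitors at 6.29, 3.91, 2.90 and 4.21 CPM. In mated progenitors it read 0.686, 2.85, 1.42 and 0.728 CPM, below every unmated library, and was called lower by edgeR (log2 fold change -1.61 ± 0.46, adjusted p = 0.0236), a call lost in 4 of the 8 fits that left out 1 library. Cyp49a1, of the mitochondrial clan, read 3.39 ± 1.08 and 3.94 ± 2.15 CPM (SD, n = 4) in mated and unmated esg-Gal4 whole guts and 0.0317 ± 0.0403 and 0.0224 ± 0.0151 in progenitors. The cyclophilin gene Cyp1, set apart from the family, was called in no mating or genotype comparison.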
